A study of Mus musculus with 2 samples.

Results

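The 36 genes described here encode the junctions that hold epithelial cells together: adherens junction cadherins and Epcam, tight junction proteins, desmosome proteins and plakins, 2 polarity proteins, 2 epithelial splicing factors, and a membrane protease with its 2 inhibitors. They were chosen by name, from 47 probes of 39429 on the array, and 34 of the 36 gave a measurement, among 21977 genes measured in all. RNA came from ureters dissected from mouse embryos (strain NMRI) at stage E14.5. The Bmp4cKO embryos had the genotype Tbx18(cre/+);Bmp4(fl/fl), with 2 floxed Bmp4 alleles and cre in 1 copy of Tbx18. Controls had the genotype Tbx18(+/+);Bmp4(fl/?), with no cre, at least 1 floxed allele and a second allele that the labels do not name. Each of the 2 two-colour arrays held 1 RNA of either genotype, in opposite dye orientation. On replicate 1, labelled female, the RNA labelled Bmp4cKO was green (AlexaFluor555), and on replicate 2, labelled male, it was red (AlexaFluor647). Whether an RNA came from 1 embryo or from a pool, and whether controls were littermates, is not stated by the labels, so the p-values measure only the spread between these 2 arrays.

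Adherens junctions join neighbouring cells through E-cadherin, the product of Cdh1, and its relatives. Tight junctions seal the space between cells with claudins, occludin and related membrane proteins, which scaffolds such as ZO-1 tie to actin. Desmosomes are adhesive spots in which desmogleins and desmocollins outside the cell connect through plakoglobin, plakophilins and desmoplakin to keratin filaments inside it. Some of these genes, such as Tjp1, are expressed by many cell types. In the ureter many of them are active in the urothelium, the lining epithelium that must stay watertight while the tube stretches. The Tbx18-driven cre acts in the mesenchyme around that epithelium, the tissue that makes the secreted signal BMP4.

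The targeted gene went against the labels. Bmp4 had processed signals (linear intensities, spatially detrended and dye-normalized by the scanner software) of 3613 and 1973 in the RNAs labelled control of replicates 1 and 2, and of 29491 and 27393 in those labelled Bmp4cKO. Its log2 ratio, RNA labelled Bmp4cKO over RNA labelled control, was 3.04 and 3.71, averaging 3.38 ± 0.48 (SD, n = 2 arrays; adjusted p = 0.016 by limma). Its other probe was not well above background in any RNA, and the labels do not say which part of Bmp4 is deleted, so this check may be void. Tbx18 had a ratio of the same sign, 0.85 on replicate 1 and on average 0.97 ± 0.17 (SD over 2 arrays; limma adjusted p = 0.040). In the authors' deposited table the signs are the opposite, with signed folds of -8.16 and -13.9 for Bmp4. The sample titles read "Bmp4cKO vs control", and whether the folds follow that order is not stated otherwise. Read in that order, the deposited folds put Bmp4 lower in Bmp4cKO, against the dye labels. All directions below follow the dye labels, and are given relative to Bmp4: "with Bmp4" means higher in the RNA labelled Bmp4cKO, and "opposite to Bmp4" means lower in it. If the labels were exchanged on both arrays, every direction would turn and the relation to Bmp4 would stay. The sexes also went against a label. On replicate 2 the Y-linked gene Ddx3y had a signal of 2720 in the RNA labelled control and did not clear the background in its partner, which had an Xist signal of 1464 at a probe below that limit in the control. On replicate 1 that Xist probe had 1536 in the RNA labelled control and 1859 in its partner, and Ddx3y cleared the background in neither. On replicate 2 sex and genotype label thus cannot be told apart, and its ratios enter every mean and p-value. For each called gene that is named, the value of replicate 1 alone is therefore given beside the mean. The number of arrays limits the precision, and each channel detected 69.3% to 74.6% of the probe spots.

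Some sequences behind these measurements are shown first. Each value is read from a probe of 60 bases, and the 2 below, written as deposited, measured members whose ratio lay close to 0. The Epcam probe covers 829 bases of the genome at chr17:88048972-88049800 (mm9, plus strand), so its bases are not contiguous there. The Cldn4 probe lies at chr5:135422135-135422194 (mm9, minus strand).
Epcam probe: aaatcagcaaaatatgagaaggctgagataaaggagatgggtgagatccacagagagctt
Cldn4 probe: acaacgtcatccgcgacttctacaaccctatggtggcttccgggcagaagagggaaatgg

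Promoters were searched for the E-box CACCTG, on either strand (CAGGTG on the other), which is bound by repressors of epithelial genes such as the Snail and Zeb factors, and for the grainyhead site AACCGGTT, which reads the same on both strands. RefSeq windows of 300 bases (GRCm38.p6), 250 before and 50 after a transcript start, matched 18 of the 36 genes with 23 windows. The E-box was present in 17 of these 23 windows (73.91%) and in 20.21% of all 32851 windows of that length. By gene, 13 of 18 members held it in at least 1 window, against 22.56% of all genes with a window. Perp, Cdh1, Cdh3 and the plakophilins had no matching window, and of the desmosome genes only Dsp and Jup had any, so the shares do not cover these genes. The grainyhead site was in 0 of the 23 windows and in 0.15% of all windows. Epcam and Cldn4, members near 0, are shown with Cldn1, the member that fell, as the 250 bases before the start, 5′ to 3′ on the gene's strand, with E-boxes in capitals. They span chr17:87635729-87635978 (plus strand), chr5:134946935-134947184 (minus) and chr16:26371840-26372089 (minus) in GRCm38.p6.
Epcam promoter: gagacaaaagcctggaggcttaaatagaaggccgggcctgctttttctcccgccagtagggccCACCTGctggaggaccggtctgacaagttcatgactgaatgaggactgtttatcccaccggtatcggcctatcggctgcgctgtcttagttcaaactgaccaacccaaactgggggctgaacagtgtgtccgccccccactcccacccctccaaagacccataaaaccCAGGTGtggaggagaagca
Cldn4 promoter: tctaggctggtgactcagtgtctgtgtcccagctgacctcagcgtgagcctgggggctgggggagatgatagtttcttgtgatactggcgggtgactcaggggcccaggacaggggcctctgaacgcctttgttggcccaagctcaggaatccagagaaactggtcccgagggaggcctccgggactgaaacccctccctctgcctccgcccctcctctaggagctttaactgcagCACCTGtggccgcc
Cldn1 promoter: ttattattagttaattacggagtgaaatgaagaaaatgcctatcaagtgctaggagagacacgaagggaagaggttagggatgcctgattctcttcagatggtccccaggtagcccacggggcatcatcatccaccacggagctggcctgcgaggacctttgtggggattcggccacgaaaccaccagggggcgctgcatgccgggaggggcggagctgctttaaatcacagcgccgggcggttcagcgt
In the Epcam sequence the E-boxes begin 187 and 19 bases before the start, and in the Cldn4 sequence 14 bases before it. The Cldn1 sequence holds neither motif. These letters are a description of the windows, and binding was not measured. Of the factors that bind the E-box, Snai1 was higher with Bmp4 at a mean log2 ratio of 1.18 ± 0.26 (SD over 2 arrays; limma adjusted p = 0.035), and had 1.00 on replicate 1, while Snai2 had 0.16 ± 0.26, Zeb1 -0.36 ± 0.08 and Zeb2 0.65 ± 0.05, none of which passed. The last 3 were chosen after their values were seen.

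Among the junction genes, Perp rose with Bmp4 and Cldn1 fell, and the other 32 measured members did not pass the test. Perp encodes a membrane protein of desmosomes and a target of the epithelial factor p63, and it was 6.05-fold higher. Cldn1 encodes claudin-1, a barrier claudin, and it was 2.65-fold lower. The call of 1 higher member (limma, Benjamini-Hochberg adjusted p under 0.05 over all genes) stands beside 0.887% of all genes called higher, and the call of 1 lower member beside 1.02% called lower. The same 2 members were the only ones of the 34 that changed at least 2-fold alike on both arrays, a rule met by 0.578% of all genes upward and 0.619% downward. At an unadjusted limma p under 0.05 there were 11 members higher and 3 lower, beside 7.15% of all genes higher and 7.37% lower at that level. Over the 32 members well above background in all 4 RNAs, 10 were higher and 3 lower at that level. With a variance prior that follows the signal, 7 members were called higher and 3 lower, beside 2.78% and 3.05% of all genes, and 6 of the 7 were well above background in all 4 RNAs, the exception being Pkp1, which passed the filter only through the RNAs labelled Bmp4cKO. With median centring in place of loess, 0 of all 21977 genes were called in either direction by limma (1760 at an unadjusted p under 0.05, 10 of them members), while Perp stayed at 2.62 and Cldn1 at -1.42.

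As a whole the members leaned with Bmp4 by a small amount. Their median log2 ratio was 0.17, or 0.16 on replicate 1 and 0.21 on replicate 2, beside -0.0091 over all genes. On both arrays 20 of 34 members (58.8%) were higher, against 28.2% of all genes, and 5 were lower (14.7%), against 30.6%. The remaining 9 had opposite signs on the 2 arrays, as did 41.2% of all genes. Over the 32 members well above background in all 4 RNAs, 19 were higher and 5 lower on both arrays, and the median was again 0.17. By size, 18 of the 34 had a mean within 0.25 of 0 and 10 had a mean between 0.5 and 1. Pkp1, which passed the filter only through the RNAs labelled Bmp4cKO, is among these 10. Across the 34 genes the 2 arrays' ratios were correlated (Pearson's r = 0.91, Spearman's rho = 0.74), a description over genes that share the same 4 RNAs. Between mean signal and mean ratio of the same genes, Pearson's r was -0.05 and Spearman's rho -0.29. In bulk RNA, a change in the number of epithelial cells and a change in RNA per cell cannot be told apart.

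**Figure D1:**
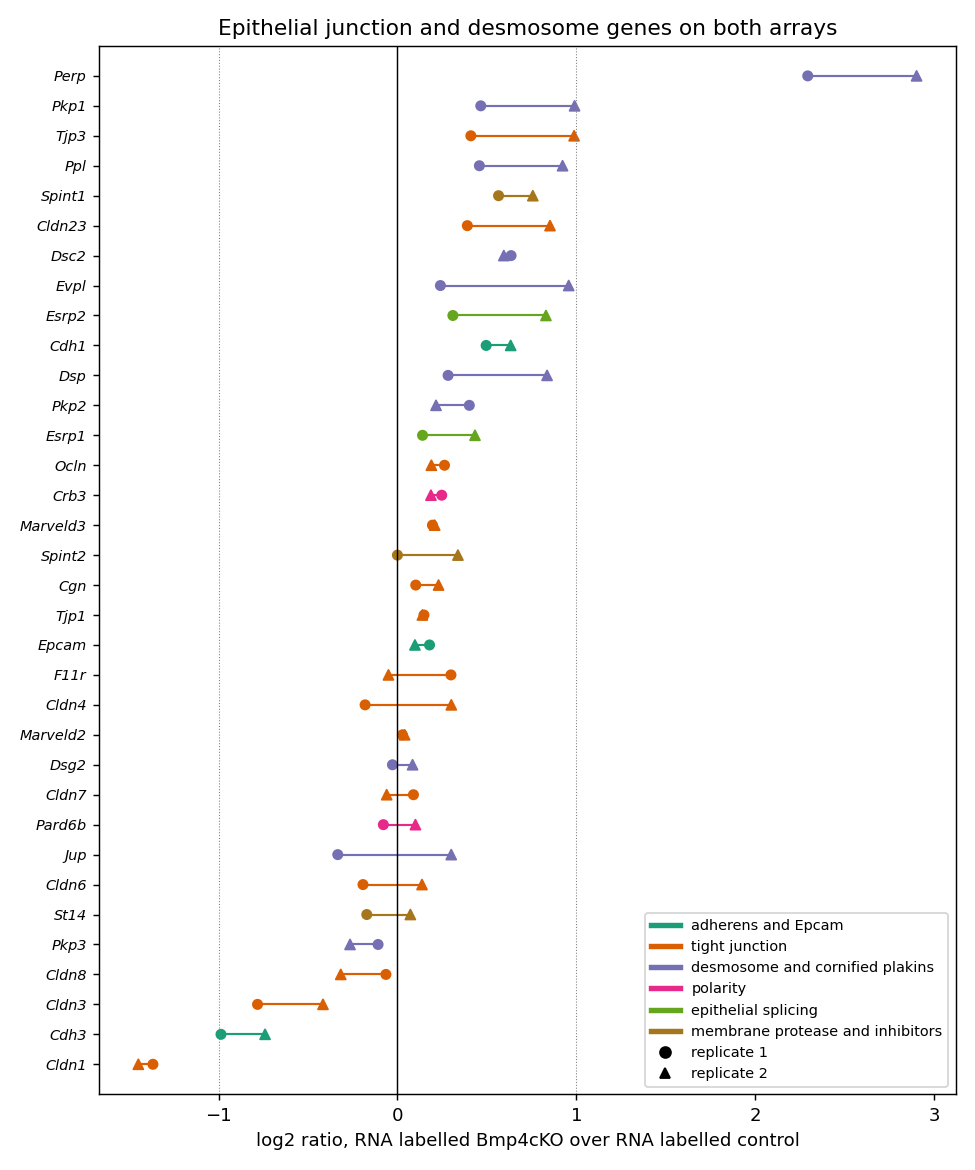
Log2 ratio (RNA labelled Bmp4cKO over RNA labelled control) of the 34 measured junction genes on replicate 1 (circles) and replicate 2 (triangles), joined by a line and coloured by role, with dotted lines at 2-fold. Perp stands apart on the right at 2.29 and 2.90 and Cldn1 on the left at -1.37 and -1.45, and the other 32 members lie within 2-fold on both arrays.

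The defining epithelial markers were well above background in all 4 RNAs. Epcam, an adhesion protein of epithelial membranes, had processed signals of 4927 and 5903 in the RNAs labelled control of replicates 1 and 2 and of 5268 and 6598 in those labelled Bmp4cKO. The RNA labelled Bmp4cKO was the brighter on each array by little, and the groups overlap. Its log2 ratio was 0.18 and 0.10, averaging 0.14 ± 0.06 (SD, n = 2 arrays; adjusted p = 0.71 by limma). Cdh1, the E-cadherin gene, had signals of 1375 and 1857 in the RNAs labelled control and of 1929 and 2884 in those labelled Bmp4cKO. The groups do not overlap, though by a narrow gap between the control of replicate 2 and the Bmp4cKO of replicate 1. Here and below, overlap only describes the 4 signals of a gene, and the share of all genes without overlap was not counted. Cdh1 had a ratio of 0.50 and 0.63, averaging 0.56 ± 0.10 (SD, n = 2 arrays; adjusted p = 0.11 by limma). The Cdh1 probe is printed 10 times on each array, and the SD of the ratio over those spots was 0.056 and 0.029, so the spread between spots is smaller than that mean.

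Cdh3, which encodes P-cadherin of basal epithelial layers, pointed the other way from Cdh1. Its signals were 2435 and 3411 in the RNAs labelled control and 1141 and 2049 in those labelled Bmp4cKO, and the groups do not overlap. Its ratio of -0.99 and -0.74, a mean of -0.86 ± 0.17 (SD, n = 2 arrays), missed the threshold by a small margin (limma adjusted p = 0.052). It was called lower with plain background subtraction, without the filter on dim probes, and with a robust or a trended prior. Cdh1 and Cdh3 are neighbours on chromosome 8, with their probes 113.8 kb apart in mm9, at 109193812 to 109193871 and 109079933 to 109079992. Cdh1's log2 ratio exceeded Cdh3's by 1.48 on replicate 1 and by 1.37 on replicate 2, a difference between genes that was not tested. Esrp2, on the same chromosome 424.8 kb from the Cdh3 probe, had a ratio like that of Cdh1, at 0.57.

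Of the 14 tight junction genes, 7 were higher and 3 lower on both arrays, and Cldn1 had the largest ratio by size. Cldn1 had processed signals of 329 and 378 in the RNAs labelled control and of 108 and 120 in those labelled Bmp4cKO. Both control RNAs were above both Bmp4cKO RNAs, and the arrays gave nearly the same ratio, -1.37 and -1.45. The mean was -1.41 ± 0.06 (SD, n = 2 arrays; adjusted p = 0.021 by limma), read from a probe on chromosome 16 from 26357372 to 26357431 (mm9, minus strand). In the authors' deposited table its signed folds were 3.04 and 3.15, of the sign opposite to Bmp4 there too. Cldn3, for claudin-3, had signals of 3267 and 5781 in the RNAs labelled control and of 1833 and 4396 in those labelled Bmp4cKO. It was lower within each array, while the groups overlap across arrays. Its ratio was -0.78 and -0.42, averaging -0.60 ± 0.26 (SD, n = 2 arrays; adjusted p = 0.14 by limma). Its neighbour Cldn4, 41.1 kb away on chromosome 5, had -0.18 and 0.30, and a second Cldn4 probe had -0.25 and 0.32. Cldn3's ratio was below Cldn4's on both arrays, with differences of -0.60 and -0.72 that were not tested.

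**Figure D2:**
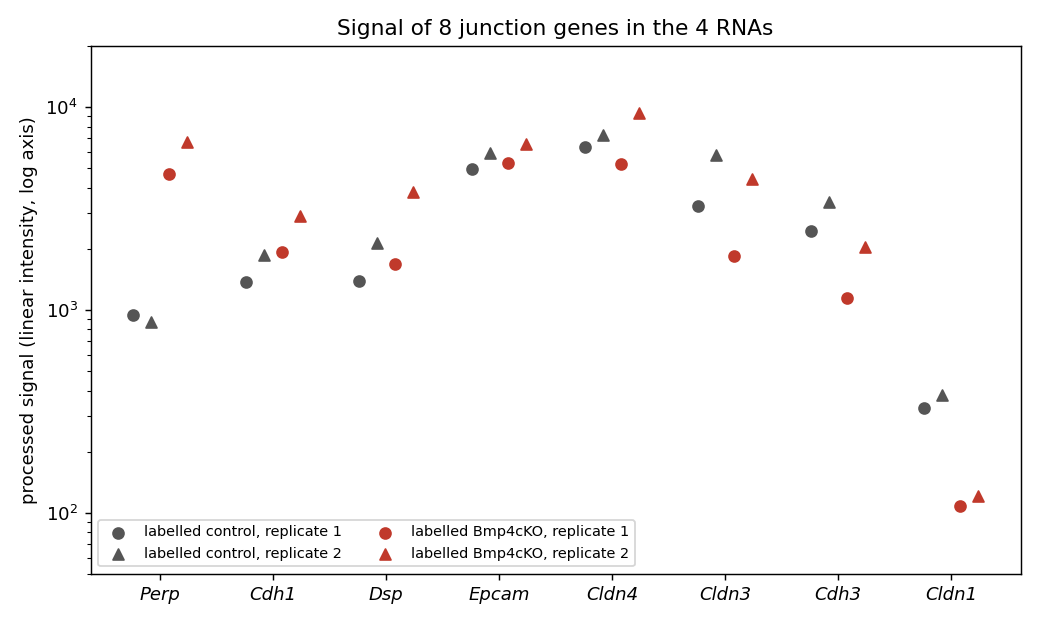
Processed signal (linear intensity on a log axis) of 8 junction genes in each of the 4 RNAs, labelled control in grey and labelled Bmp4cKO in red, with circles for replicate 1 and triangles for replicate 2. For Perp both red points stand above both grey points and for Cldn1 both stand below, while the 4 points of Epcam lie close together.

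Of the other claudins, 3 lay near 0. Cldn7 was at 0.01 ± 0.11, Cldn6 at -0.03 ± 0.23 and Cldn8, of the collecting duct and distal nephron, at -0.19 ± 0.18 (SD, n = 2 arrays). None of these passed the limma test, with adjusted p-values of 0.98, 0.98 and 0.62. Cldn23 leaned with Bmp4, at 0.39 and 0.85, averaging 0.62 ± 0.33 (SD, n = 2 arrays; adjusted p = 0.15 by limma). Ocln, for occludin, had 0.23 ± 0.05, Marveld2, for tricellulin of 3-cell contacts, 0.03 ± 0.01, and F11r, for junctional adhesion molecule A, 0.12 ± 0.25. Marveld3 had 0.20 ± 0.01 on its brighter probe and -0.23 ± 0.18 on the other, so its direction depends on the probe. It was the single member of 8 with 2 passing probes whose probes disagreed in sign.

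Among the scaffolds that carry the tight junction, Tjp3 (ZO-3) had 0.41 and 0.99, averaging 0.70 ± 0.41 (SD, n = 2 arrays; adjusted p = 0.15 by limma). Its signals were 972 and 1345 in the RNAs labelled control and 1347 and 2552 in those labelled Bmp4cKO, and the control of replicate 2 nearly met the Bmp4cKO of replicate 1. Tjp1 (ZO-1), which many cell types express, was at 0.14 ± 0.01, and Cgn, for the scaffold cingulin, at 0.17 ± 0.09. Neither passed, at limma adjusted p-values of 0.70 and 0.65.

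The desmosome genes leaned most with Bmp4, with a median log2 ratio of 0.58 over the 10 measured, against 0.09 over the 14 tight junction genes. The median was 0.34 on replicate 1 and 0.72 on replicate 2, and 7 of the 10 were higher on both arrays. These counts include Pkp1, and over the 9 genes well above background in all 4 RNAs the median was 0.56 (0.28 for replicate 1, 0.59 for replicate 2), with 6 higher on both. Perp carried the large change. Its signals were 947 and 873 in the RNAs labelled control and 4698 and 6718 in those labelled Bmp4cKO, so that each Bmp4cKO RNA stood several times above either control. The ratio was 2.29 and 2.90, averaging 2.60 ± 0.43 (SD, n = 2 arrays; adjusted p = 0.019 by limma), which placed Perp at rank 7 from the top among 21977 genes. Its probe lies on chromosome 10 from 18576697 to 18576756 (mm9, plus strand). Perp's log2 ratio exceeded that of Epcam by 2.11 on replicate 1 and by 2.80 on replicate 2. Trp63, which encodes the Perp regulator p63 and was chosen after its values were seen, was at 0.04 ± 0.12 (SD over 2 arrays; limma adjusted p = 0.95).

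Of the desmosomal cadherins, Dsc2 was at 0.64 and 0.59, with signals of 322 and 337 in the RNAs labelled control and 520 and 535 in those labelled Bmp4cKO. The groups do not overlap, and the mean of 0.61 ± 0.03 (SD, n = 2 arrays) did not pass (limma adjusted p = 0.084). Its partner Dsg2 was at 0.03 ± 0.08, or 0.16 ± 0.15 on another probe. Dsg3 and Dsc3, the desmoglein and desmocollin of stratified epithelia such as skin, were not well above background in any of the 4 RNAs at either of their probes, and have no measured ratio.

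The inner plaque and plakin genes gave moderate ratios. Dsp, for desmoplakin, had 0.28 on replicate 1 and 0.84 on replicate 2 (mean 0.56 ± 0.39, SD over 2 arrays; limma adjusted p = 0.23). Its probe is also spotted 10 times, and the spots ranged from 0.14 to 0.38 on replicate 1 and from 0.76 to 0.91 on replicate 2, so the arrays differed by more than the spots of an array. Ppl and Evpl, for periplakin and envoplakin, which link desmosomes to the cornified envelope in skin, were at 0.69 ± 0.33 and 0.60 ± 0.51, each larger on replicate 2. Jup, for plakoglobin, had opposite signs, -0.33 and 0.30.

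The plakophilins, which cluster desmosomal cadherins, differed among themselves. Pkp2 had 0.31 ± 0.13 and Pkp3 -0.19 ± 0.11 (SD over 2 arrays; limma adjusted p = 0.35 and 0.60). Pkp1, of stratified epithelia, was not well above background in either RNA labelled control, with signals of 7.87 and 4.66, and had 25.4 and 36 in those labelled Bmp4cKO. It entered the comparison only through the latter, so its direction follows from the filter and its test is no support for a difference. With its control signals raised to the lowest channel signals well above background, after loess and scaling between arrays, a lower bound of 1.32-fold resulted. The direction of that bound also follows from the filter, and Pkp1 did not pass the test (limma adjusted p = 0.13).

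The polarity, splicing and protease genes contained no called member. Crb3 of the apical Crumbs complex was at 0.22 ± 0.04 and Pard6b of the Par complex at 0.01 ± 0.13. Pard6b had signals between 22.8 and 39.0, was not well above background in the control RNA of replicate 1, and passed the filter only through the RNAs labelled Bmp4cKO. Esrp2 and Esrp1, which direct epithelial splice forms of many transcripts, were at 0.57 ± 0.37 and 0.29 ± 0.21, both higher on each array. Spint1, which encodes the matriptase inhibitor HAI-1, had signals of 2560 and 3146 in the RNAs labelled control and 3762 and 5454 in those labelled Bmp4cKO, without overlap. Its ratio was 0.57 and 0.76, averaging 0.66 ± 0.14 (SD, n = 2 arrays; adjusted p = 0.082 by limma), and 0.78 ± 0.11 on its second probe. St14, for matriptase itself, was at -0.05 ± 0.17 and Spint2, for the inhibitor HAI-2, at 0.17 ± 0.24.

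**Figure D3:**
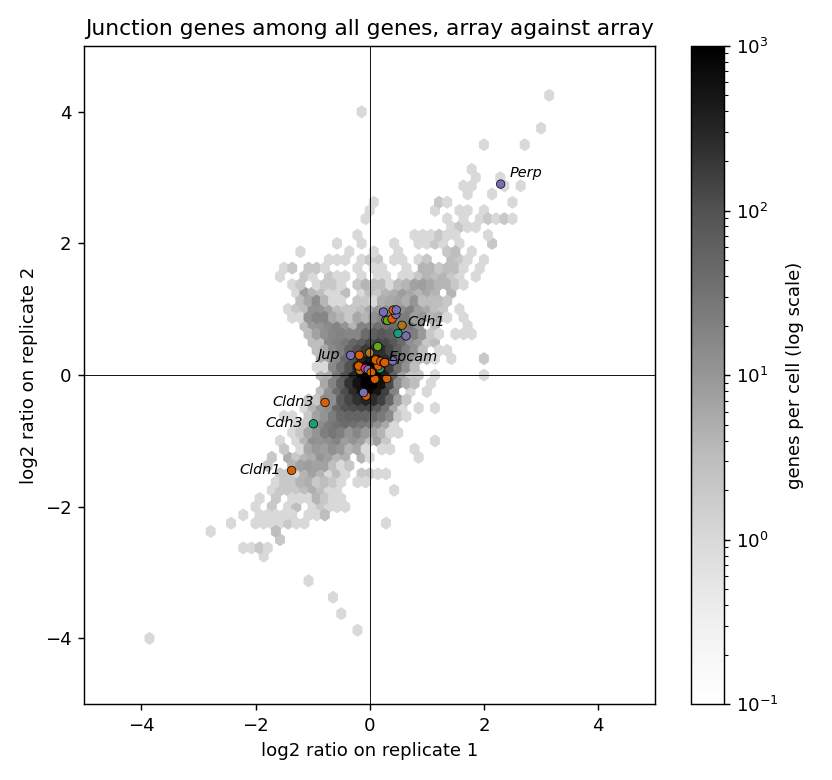
Log2 ratio on replicate 2 against replicate 1 for all 21977 genes (grey cells, darker for more genes) and the 34 junction genes (points, coloured by role as in the plot of log2 ratios by gene). Perp lies far up the diagonal at 2.29 and 2.90, Cldn1 and Cdh3 lie down it, and Jup lies off it at -0.33 and 0.30.

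Other junction genes, from a list of 32 that holds nectins, catenins, further claudins and polarity proteins, gave a median log2 ratio of -0.03 over the 27 measured. Of these 1 was called higher, Ildr1, whose product angulin-2 recruits tricellulin to 3-cell contacts, at 1.16 ± 0.34 (SD over 2 arrays; limma adjusted p = 0.042), and 0 were called lower by limma, with 1 lower at an unadjusted p under 0.05. Ildr1 had 0.92 on replicate 1. Its call was lost with median centring, without normalization, and in a fit of separate channels with no replicate block. On both arrays 7 were higher and 7 lower. The higher ones and the median include Nectin4 and Cldn10, which passed the filter only through the RNAs labelled Bmp4cKO. Their direction thus follows from the filter. Nectin4 had control signals of 5.68 and 7.40 and Cldn10 had 19.9 in the control of replicate 1. The lowest control signals well above background were 22.4 and 18.7 on replicates 1 and 2. Many genes of this list, such as the catenins, are active beyond epithelia.

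Differentiation genes of the same epithelium gave larger ratios. All 5 uroplakin genes, which encode the plaque proteins of the urothelial surface, rose, with a median log2 ratio of 2.41, against 0.17 for the junction genes. On replicate 1 alone Upk1b had 3.14, Upk3a 2.18 and Upk2 1.88. Over both arrays Upk1b was at 3.72 ± 0.82, Upk3a at 2.48 ± 0.42 and Upk2 at 2.41 ± 0.76 (SD over 2 arrays; limma adjusted p = 0.020, 0.019 and 0.030). Of 8 keratin genes, whose filaments anchor at desmosomes, Krt19 at 1.41 ± 0.05 and Krt8 at 0.86 ± 0.10 rose (limma adjusted p = 0.021 and 0.045), and the median was 0.64. On replicate 1 Krt19 had 1.37 and Krt8 0.79. The summed processed signal of the 8 keratins was 46443 and 50333 in the RNAs labelled control and 89317 and 86676 in those labelled Bmp4cKO. That of the 5 uroplakins was 2238 and 1770 against 11737 and 15233. That of the 14 tight junction genes was 64403 and 75583 against 65073 and 78641. The 10 desmosome genes, Perp among them, had 16072 and 15911 against 19816 and 24018. For the 3 adherens genes it was 8737 and 11172 against 8338 and 11531, and for the 3 protease genes 12009 and 16849 against 12860 and 22970. The 2 splicing genes had 2678 and 2954 against 3039 and 4433, and the 2 polarity genes 1884 and 1967 against 2114 and 2303. These differences between lists were not tested, and the part that epithelial cell number plays in any of them was not tested.

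Of 15 genes for epithelial regulators and surface proteases, such as Grhl and Ovol factors, Tmprss2 rose at 1.10 ± 0.26 (SD over 2 arrays; limma adjusted p = 0.040), none fell, and the median was 0.41. Tmprss2 had 0.91 on replicate 1. Grhl3, a grainyhead factor chosen after its values were seen, had the highest ratio of that list, 1.21 and 2.57, averaging 1.89 ± 0.96, and did not pass (SD over 2 arrays; limma adjusted p = 0.068). Genes of the nephric duct, bud tip and collecting duct, an epithelium that also carries Cdh1 and claudins, were lower on both arrays in 11 of 14 cases and called lower in 3, with a median of -0.34, or -0.14 on replicate 1 and -0.57 on replicate 2. Wnt9b was at -1.97 ± 0.51, Ret at -1.20 ± 0.05 and Lhx1 at -1.06 ± 0.17 (SD over 2 arrays; limma adjusted p = 0.026, 0.025 and 0.035). On replicate 1 they had -1.61, -1.23 and -0.94. Gata3 at 0.49 ± 0.40 and Hoxb7 at 0.04 ± 0.04 were instead higher on both arrays. Aqp2, at -0.02 ± 0.04, had opposite signs on the 2 arrays. None of these passed, and they were named after their values were seen. The summed signal of that list was 33496 and 43469 in the RNAs labelled control and 30137 and 33477 in those labelled Bmp4cKO. Its part in the ratios of the junction genes was not tested. That holds also for Cldn1, Cldn3, Cdh3, Cldn8 and Pkp3, the 5 members that were lower on both arrays and were picked for it.

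**Figure D4:**
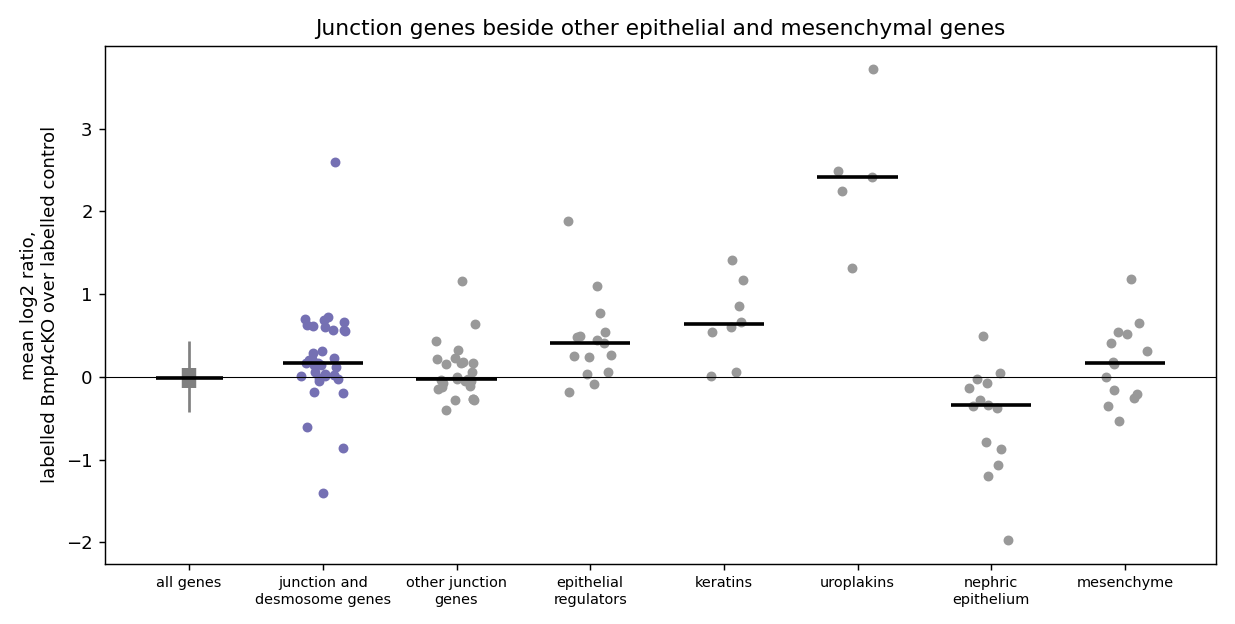
Mean log2 ratio of each gene (points) and list median (black line) for junction genes and 6 other lists, beside all genes (grey bar, 25th to 75th percentile, with the line from the 5th to the 95th and the median in black). The junction genes centre at 0.17 with Perp as the highest point, below the uroplakins at 2.41 and the keratins at 0.64.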

How the data were processed

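RNA from 4 ureter preparations (200 ng of total RNA each, per the labels) was measured on 2 two-colour arrays. The authors quantified spots with Agilent Feature Extraction 10.7.3.1, per the file headers and the submitters' processing notes, and probe positions are in mm9. Deposited spot and background values are intensities as scanned. The processed signals, also deposited, are intensities after the software spatially detrended them and normalized the dyes, with no local background subtracted, and the deposited log ratio is their log10 of red over green, per the file headers. The authors' deposited value table holds a score per probe, a signed fold. It matched the scanner ratio in size, to 0.01 on the log2 scale, for 98.2% and 97.2% of passing probes, and its median is 1 in both columns.

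Here, background was corrected by normexp (offset 50) and ratios were normalized by loess in limma 3.58.1 (R 4.3.3), with control spots at weight 0 and outlier spots (231 and 235) left out. Spots of a probe were averaged, and 31001 of 39429 probes were named through RefSeq (GRCm38.p6). A probe passed if both RNAs of a genotype label were well above background, and the brightest passing probe stood for a gene. Ratios were turned by the dye labels and fitted with lmFit and eBayes, with 1 residual and 4.03 prior degrees of freedom per gene, so that the prior carries most of each test. P-values were adjusted by Benjamini-Hochberg over all genes. The fit was also run on simulated data whose spread was drawn from this same prior, so that run is no support for the calls. The pairing of the RNAs is by array. In other lists the called genes with the largest ratios (at most 3), or otherwise the 2 largest ratios, are named. The values of 1 gene that this rule selects are not reported here. Members and lists were chosen with earlier results of these data known.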

Additional observations from a re-analysis of the deposited data

Results flagged for a closer look

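The 2 arrays differ in sex label and in dye orientation. They gave opposite signs for 9 of the 34 measured genes, none of them called, and 41.2% of all genes did so. The log2 ratio on replicate 2 minus that on replicate 1 was 0.63 for Jup, 0.48 for Cldn4, 0.34 for Spint2, 0.33 for Cldn6, 0.24 for St14, 0.18 for Pard6b and 0.11 for Dsg2. It was -0.35 for F11r and -0.15 for Cldn7. These differences were not tested, and with 1 array of each kind sex label, dye and preparation cannot be told apart. By the Ddx3y and Xist signals given above, the RNAs of replicate 2 also differed in sex, which its ratios cannot separate from genotype label.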

How the results depend on the processing

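With 1 residual degree of freedom the variance prior carries most of each test. Of the 34 members, 24 kept their direction in every setting that measured them, which was 13 settings, or 12 for Pkp1. Called members numbered 1 higher and 1 lower. The scanner's processed signals gave 2 higher, the second being Pkp1 at 2.32, whose ratio ranged from 0.47 to 2.32 over the settings and which was not well above background in either control RNA, while a trended prior gave 7 higher and 3 lower, and plain background subtraction, no filter or a robust prior 2 lower each. Median centring and no normalization gave 0 and 0 (limma; 10 and 1 members at an unadjusted p under 0.05), with Perp at 2.62 and 2.60 and Cldn1 at -1.42 and -1.44. Without normalization, 1 member in place of 2 was 2-fold alike on both arrays. Among other junction genes, 1 higher became 2 with processed signals and with a trended prior, and 0 with median centring, without normalization, and in the fit with no replicate block. That fit, which drops the pairing of RNAs by array, left 1 member called each way. Over all genes, 195 higher and 225 lower became 339 and 388 with plain subtraction, 611 and 671 with a trended prior, 298 and 338 from the authors' deposited table, 0 and 0 with median centring (limma; 1760 at an unadjusted p under 0.05), and 0 and 1 without normalization (108). The members' median of 0.17 became 0.20 with median centring, 0.141 with the mean of passing probes and 0.155 without the filter. It ranged from 0.16 to 0.21 over single arrays, which allow no test. Signs turned for Cldn6 with median centring (0.016), Marveld3 with the mean of its probes (-0.015), and Pard6b with processed signals (-0.026), without normalization (-0.0049) and in the authors' deposited table (-0.026). Over single arrays Cldn4 ranged from -0.18 to 0.30, Cldn6 from -0.19 to 0.14, Cldn7 from -0.060 to 0.089, Dsg2 from -0.028 to 0.084, F11r from -0.050 to 0.30, Jup from -0.33 to 0.30, Pard6b from -0.079 to 0.10, Spint2 from -0.000102 to 0.34 and St14 from -0.17 to 0.072. The cause was not tested.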

Other observations

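Lists of genes of the mesenchyme and of other cell types were also compared between the RNAs. The smooth muscle, neural, mesothelial and keratinocyte lists held called genes, the mesenchymal list only Snai1, and the endothelial and leukocyte lists none. All 7 smooth muscle genes were higher with Bmp4 on both arrays and 3 were called by limma, with a median log2 ratio of 1.29, or 0.84 on replicate 1 and 1.77 on replicate 2. Myh11, the smooth muscle myosin heavy chain, was at 2.48 ± 0.90, Actg2 at 2.31 ± 0.85 and Cnn1 at 2.14 ± 0.58 (SD, n = 2 arrays; limma adjusted p = 0.037, 0.038 and 0.026). On replicate 1 these 3 had 1.85, 1.71 and 1.73. Of 14 mesenchymal genes Snai1 alone was called, with a median of 0.17, or 0.07 on replicate 1 and 0.71 on replicate 2, and their summed signal ranged from 289357 to 321367 in the RNAs labelled control and from 266234 to 400301 in those labelled Bmp4cKO. Col1a1, Col1a2 and Col3a1, among the brightest of these genes, had opposite signs on the 2 arrays, which enters the sums. They had -1.35, -1.15 and -1.50 on replicate 1 and 1.03, 0.74 and 0.98 on replicate 2. These collagens were named after their values were seen. All 7 neural genes were lower on both arrays and 3 were called by limma, with a median of -0.83, or -0.56 on replicate 1 and -0.79 on replicate 2. Among those called were Tubb3 at -1.52 ± 0.28 and Elavl3 at -0.89 ± 0.12 (SD, n = 2 arrays; limma adjusted p = 0.023 and 0.042), which had -1.33 and -0.81 on replicate 1.

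Of 6 mesothelial genes, which include Krt19 and Upk3b of the lists above, 3 were higher and 1 lower by limma, with Msln at 1.93 ± 0.51 and Wt1 at -1.34 ± 0.22 (SD, n = 2 arrays; adjusted p = 0.026 for each), or 1.57 and -1.18 on replicate 1. None of 7 endothelial genes was called by limma (4 higher at an unadjusted p under 0.05), with a median of 0.34, Cldn5 at 0.62 ± 0.28 and Tek at 0.51 ± 0.03. None of 5 leukocyte genes was called by limma (1 lower at an unadjusted p under 0.05), with a median of 0.03, Ptprc at -0.80 ± 0.05 and Aif1 at 0.13 ± 0.09. Of 5 measured genes of cornifying keratinocytes, Sprr1a at 2.75 ± 1.05 and Ivl at 1.86 ± 0.52 were higher (SD, n = 2 arrays; limma adjusted p = 0.038 and 0.030), with a median of 0.17. On replicate 1 they had 2.00 and 1.5. Ivl had signals of 35.3 and 16.8 in the RNAs labelled control of replicates 1 and 2. The latter was below 18.7, the lowest signal well above background in that channel. Ivl thus passed the filter only through the RNAs labelled Bmp4cKO, so its call is no support for a difference. Krt10 and Krt1 had 0.17 and 0.16, and Lor, for loricrin, was lower on both arrays at -0.73 and -0.55 and did not pass (limma adjusted p = 0.086). These 3 were named after their values were seen. The products of Sprr1a and Ivl are cross-linked into the cornified envelope that also holds periplakin and envoplakin.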
